A study of Sus scrofa with 12 samples.

Results

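The proteasome genes were studied in the Semimembranosus muscle, a muscle of the ham, of 12 Italian Large White pigs, 6 with high and 6 with low intramuscular fat (IMF). Members were the rows of the gene count table whose pig Ensembl gene name begins with PSMA, PSMB, PSMC, PSMD, PSME, PSMF or PSMG. The gene name table held 46 such names, of which 43 were matched among the 25880 genes counted. By the labels the high IMF group held 3 gilts and 3 barrows of 234 to 244 days of age, and the low IMF group 3 gilts and 3 barrows of 229 to 249 days. Polyadenylated RNA of the whole muscle was sequenced, so a change in the share of a cell type and a change in RNA per cell cannot be told apart.

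The proteasome is the protease of the cytosol and nucleus that degrades proteins tagged with ubiquitin, and in muscle it removes much of the contractile protein lost during wasting. Its 20S core is a barrel of stacked rings: the outer alpha rings (PSMA genes) gate the entry and the inner beta rings (PSMB genes) hold the catalytic sites. The 19S regulatory particle, made of ATPases (PSMC genes) and other subunits (PSMD genes), recognizes, unfolds and feeds in the substrate. Interferon induces PSMB8, PSMB9 and PSMB10, which replace the catalytic PSMB5, PSMB6 and PSMB7 in the immunoproteasome, as well as the activator PA28 made of PSME1 and PSME2.

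A pig had between 131048805 and 178013997 counts in all, and the gene with most counts took between 9.71% and 16.8% of them. Of 9 skeletal muscle fibre markers, 4 were measured (ACTA1, CKM, TNNT1 and TNNT3), and a pig had between 29769 and 58532 CPM (counts scaled to a fixed library size) on them together. The counts on 2 genes of the Y chromosome went against the labelled sex in 6 pigs, 2 of them with high and 4 with low IMF. The counts do not show whether labels or samples were exchanged, and an exchange could also have placed pigs in the other IMF group, so each comparison of the groups carries this limit.

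Of the 43 members, 40 had enough counts to be tested. PSMA8, the alpha subunit of the testis, and PSMB11, the catalytic subunit of the thymus, had 0 counts in all 12 pigs, which allows up to 3 counts in each library. PSMC3IP, a partner of meiotic recombinases that shares only the name, had 0 to 21 counts. The 40 tested genes were 11 of the constitutive 20S core, 16 of the 19S particle, the 3 inducible catalytic subunits, the pair of PA28 genes, 4 assembly chaperones, the activators PSME3 and PSME4, the inhibitor PSMF1 and PSME3IP1, a partner of PSME3. PSMA6, PSMB5, PSMB6, PSMD2, PSMG1, PSMG2 and PSMG4 were not matched to a row and were not analysed here. PSMB7 was therefore the only constitutive catalytic subunit analysed here.

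Per kilobase of exon, the constitutive subunits stood far above the inducible catalytic subunits in both groups. PSMB7, which cuts after basic residues, had a mean of 59.2 CPM per kb of exon over the 12 pigs. PSMB10, its inducible replacement, had 2.11 CPM per kb, PSMB8 had 2.18 and PSMB9 had 0.965. PSMB8 and PSMB10 lay close together on this scale and PSMB9 below them. In the outer ring the levels ran from 25.9 CPM per kb for PSMA3 to 70.8 for PSMA7, and among the non-catalytic beta subunits from 39.3 for PSMB2 to 93.8 for PSMB4. The 6 ATPases of the 19S particle lay between 33.0 and 67.4 CPM per kb. Its 10 other subunits lay between 11.7 and 58.4. The assembly chaperones, which do not stay in the finished particle, were lower, at 2.99 for PSMD10, 3.82 for PSMD9, 4.93 for PSMG3 and 9.77 for PSMD5. PSME1 and PSME2, which interferon also induces, stood at 20.6 and 14.8 CPM per kb. Both lay within the range of the 19S subunits other than ATPases. Exon lengths are those of RefSeq, which need not be the exons of the authors' count.

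PSMB7 ranged over the high IMF pigs from 50.7 to 66.5 CPM with a median of 56.6, and over the low IMF pigs from 50.7 to 63.6 with a median of 56.1. The groups overlapped almost fully, and pigs 3 and 10, of different groups, were the highest. PSMB8, which takes the place of PSMB5, ranged from 2.14 to 2.89 CPM with a median of 2.52 in the high IMF group and from 2.00 to 3.57 with a median of 2.79 in the low IMF group. PSMB9, which takes the place of PSMB6, ranged from 0.786 to 1.34 CPM with a median of 1.02 in the high IMF group and from 0.520 to 1.70 with a median of 1.06 in the low IMF group. For both genes pig 11 was the highest, and the low IMF pigs reached farther in both directions than the high IMF pigs. PSMB10 ranged from 1.63 to 3.34 CPM with a median of 2.10 in the high IMF group and from 1.51 to 2.54 with a median of 1.88 in the low IMF group. Its highest value was that of pig 5.

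These levels rest on few reads for the inducible genes. PSMB9 had 78 to 296 counts a pig, PSMB10 230 to 441 and PSMB8 306 to 620, against 6047 to 10460 for PSMB7. Counting error alone gives an SD of 0.12 in log2 CPM at the mean count of PSMB9, beside an SD of 0.46 over the 12 pigs.

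**Figure D1:**
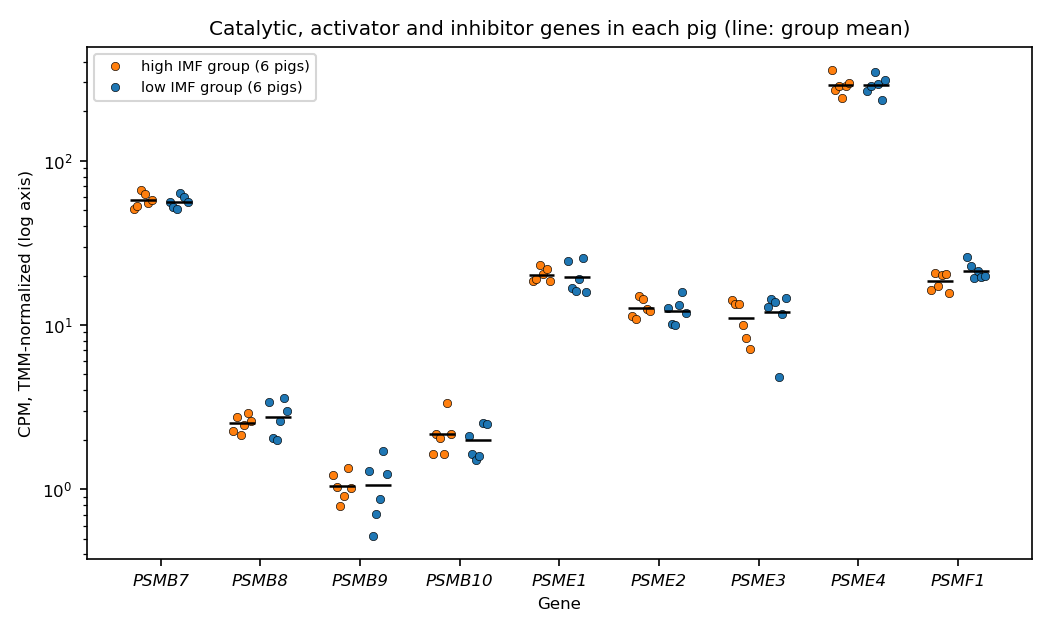
CPM of 9 genes on a log axis, with a point for each pig (orange, 6 high IMF pigs; blue, 6 low IMF pigs) and a line at the mean of each group. The groups overlap for each gene, PSMB8, PSMB9 and PSMB10 lie more than 10-fold below PSMB7, and PSME3 of pig 10 stands at 4.82 CPM below the other pigs.

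PSME1 and PSME2 encode the subunits of PA28, which opens the core to peptides without ATP. PSME1 ranged from 18.5 to 23.0 CPM with a median of 19.8 in the high IMF group and from 15.9 to 25.5 with a median of 18.0 in the low IMF group. PSME2 ranged from 10.9 to 15.1 CPM with a median of 12.4 and from 9.93 to 15.8 with a median of 12.2 in the same order. Both were highest in pig 11, as were PSMB8 and PSMB9. PSME3, the nuclear relative of PA28 that interferon does not induce, ranged from 7.11 to 14.2 CPM with a median of 11.7 in the high IMF group and from 4.82 to 14.6 with a median of 13.4 in the low IMF group. PSME4, the ATP-independent activator PA200, had the most counts of all members, from 241 to 356 CPM with a median of 284 in the high IMF group and from 236 to 347 with a median of 289 in the low IMF group. Its exons are long, and per kb it stood at 37.3, below PSMB7. PSMF1, the inhibitor PI31, ranged from 15.6 to 20.9 CPM with a median of 18.6 in the high IMF group and from 19.3 to 26.0 with a median of 20.6 in the low IMF group.

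No proteasome gene was called between the groups. With edgeR's quasi-likelihood test and Benjamini-Hochberg adjustment over 14262 genes, 0 of the 40 passed both an adjusted p of 0.05 and a size of 0.58 of the log2FC, which is coded low over high IMF, a rule that called 0% of all genes tested. At an unadjusted p at or under 0.05 stood 0 of the 40 members and 10.4% of all genes tested. Both counts of members were also 0 with DESeq2's Wald test and with limma-voom. The values of the groups overlapped in all 40 members, while 0.659% of all genes tested had groups that did not overlap. The median log2FC of the members was 0.00 and that of all genes -0.01, with 22 members above 0 and 18 below. In size, the median log2FC was 0.05 over the members and 0.17 over all genes.

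For most members the confidence interval of the log2FC stayed within 0.58 of 0. The 95% confidence interval of the log2FC lay wholly within 0.58 of 0 for 37 of the 40 members and for 49.0% of all genes tested. The exceptions were PSMA7, PSMB9 and PSME3. A mean of at least 10 CPM was reached by 34 of the 40 members and by 5710 of the 14262 genes tested. The median SE was 0.10 over the members and 0.18 over all genes tested. Shares of genes at like levels were not compared. PSMF1 came nearest to the threshold, with a log2FC of 0.22 (SE 0.11, 95% confidence interval -0.01 to 0.45) and an adjusted p of 0.497 by edgeR. PSMC6, an ATPase, had a log2FC of -0.19 (-0.43 to 0.04), the lowest of the members. PSMA7 had the highest, 0.27 (-0.09 to 0.63), with pig 7 at 110 CPM and pig 10 at 97.8 above the high IMF pigs, whose highest was 83.3.

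By role, the 6 alpha subunits had a median log2FC of -0.07 with 2 above 0, the 4 non-catalytic beta subunits -0.04 with 1 above 0, the ATPases 0.02 with 3 above 0, and the 10 other 19S subunits 0.03 with 8 above 0. PSMB7 had a log2FC of -0.03 (-0.23 to 0.17). The inducible subunits had 0.14 (-0.22 to 0.49) for PSMB8, 0.00 (-0.58 to 0.58) for PSMB9 and -0.12 (-0.57 to 0.32) for PSMB10. PSME1 had -0.04 (-0.33 to 0.25), PSME2 -0.06 (-0.34 to 0.22), PSME3 0.12 (-0.42 to 0.66) and PSME4 0.00 (-0.24 to 0.25). Without the 6 pigs whose Y chromosome counts went against the label, which leaves 4 high and 2 low IMF pigs, 18 of the 40 log2FC moved by more than 1 SE, each with an unadjusted p over 0.05. PSMB8 then had a log2FC of 0.39, PSMB9 0.50, PSMB10 0.41 and PSMB7 0.07. PSME1 had 0.12 and PSME2 0.18, both on the other side of 0. PSMA7, the highest with all pigs, had 0.06, and PSMC6, the lowest with all pigs, had -0.06. PSMG3 had 0.37 and PSMD5 -0.26.

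**Figure D2:**
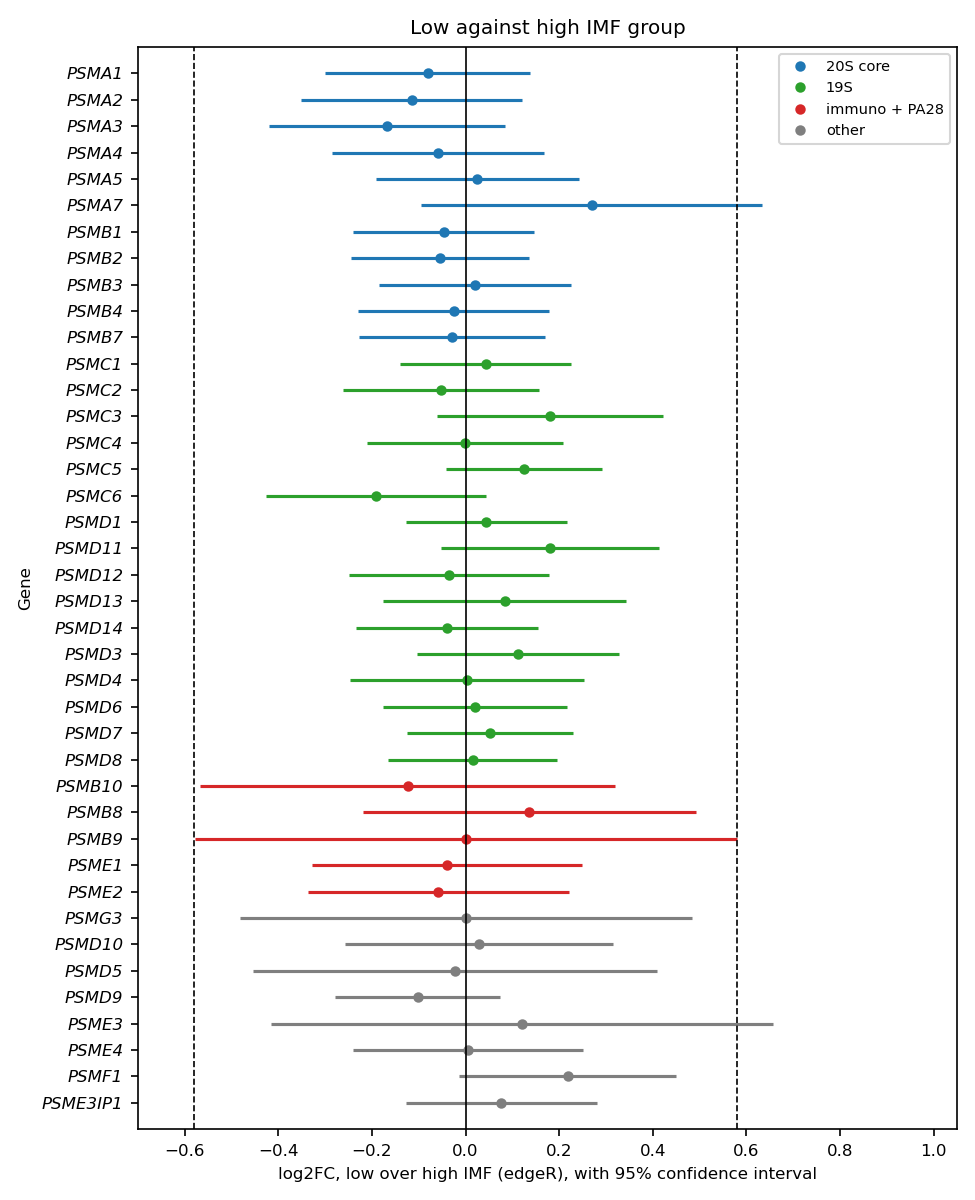
Log2FC, low over high IMF, of the 40 members with its 95% confidence interval (edgeR), coloured by group of the complex, and dashed lines at 0.58 above and below 0. Each interval holds 0, and those of PSMA7 and PSME3 pass a dashed line.

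Ratios within a pig compare a subunit with its alternative and cancel the library size. The counts of PSMB10 were on average 3.79% of those of PSMB7 in high IMF pigs and 3.51% in low IMF pigs. As a log2 ratio this was -4.78 ± 0.42 (SD, n = 6) and -4.86 ± 0.31 (SD, n = 6). The log2 ratio of low minus high was -0.09, with p = 0.706 in a two-sided exact permutation test. PSMB8 was on average 4.42% and 4.88% of PSMB7 in the same order (exact permutation p = 0.396), and PSMB9 1.87% and 1.85% (exact permutation p = 0.831). The log2 ratio of PSME1 over PSME3 was 0.92 ± 0.43 (SD, n = 6) with high IMF and 0.77 ± 0.72 (SD, n = 6) with low IMF (exact permutation p = 0.675). That of PSME2 over PSME3 was 0.24 ± 0.47 (SD, n = 6) and 0.10 ± 0.75 (SD, n = 6) (exact permutation p = 0.701). Over the 5 ratios each adjusted p was 0.831, and the smallest p that the arrangements of 12 pigs allow is 0.00216. Each difference was smaller than the SD between pigs of either group. The ratios to PSME3 depended on pig 10, where PSME3 was lowest: without it the difference was -0.39 for PSME1 (exact permutation p = 0.167) and -0.42 for PSME2 (exact permutation p = 0.149). The ratios with PSMB7 in the place of PSMB5 and PSMB6 were chosen after the count table was seen. Without the 6 pigs whose Y chromosome counts went against the label low minus high was 0.32 for PSMB8 over PSMB7, 0.42 for PSMB9 and 0.36 for PSMB10, all above 0. The exact permutation p was 0.133, 0.267 and 0.133, and with these 6 pigs left it cannot go below 0.0667.

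The spread between pigs was small for most subunits. The SD of log2 CPM over the 12 pigs had a median of 0.16 over the members and of 0.33 over all genes tested, and 35 of the 40 members lay below the latter. Among genes with a mean of at least 10 CPM the medians were 0.16 over 34 members and 0.24 over 5710 genes. PSMD1, a large scaffold subunit of the 19S particle, had the lowest SD of the members, 0.10, under which lay 0.617% of all genes tested. It ranged from 83.4 to 102 CPM. Next were PSMD9, with 0.10, and PSMD8, PSMD7 and PSMC5, with 0.11 each.

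The widest spread belonged to PSME3 with an SD of 0.50, PSMB9 with 0.46 and PSMG3, a chaperone of the alpha ring, with 0.43. PSME3 was lowest in pig 10 at 4.82 CPM, followed by pigs 6 and 5 at 7.11 and 8.30 CPM, and its SD was 0.35 without pig 10. PSMG3 was lowest in pig 9 at 1.98 CPM and pig 4 at 2.35 CPM, with the other pigs between 3.31 and 5.03, and its SD was 0.32 without pig 9. PSMB9 had an SD of 0.37 without pig 8, its lowest at 0.520 CPM. PSMD5, a chaperone of the 19S base, followed with 0.38 and was lowest in pig 5 at 11.5 CPM and pig 12 at 13.7 CPM.

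**Figure D3:**
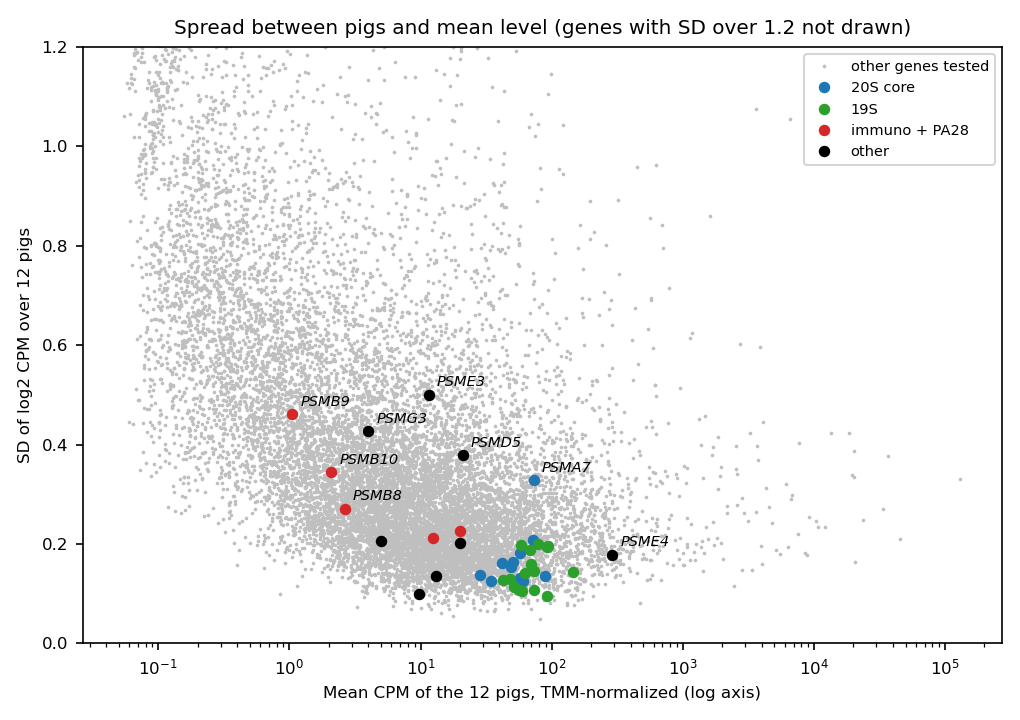
SD of log2 CPM over the 12 pigs against the mean CPM (log axis), with a dot for each of the genes tested (grey) and a coloured point for each proteasome gene. The 20S and 19S genes lie in the lower part of the cloud, PSMA7 excepted, and PSME3, PSMB9, PSMG3 and PSMD5 lie higher.

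The subunits of the constitutive particle rose and fell together from pig to pig. Among the 11 constitutive core genes the median of Pearson's r over 55 pairs was 0.638, with a range of 0.586 to 0.695 on omission of single pigs. Among the 16 genes of the 19S particle it was 0.375 over 120 pairs (0.308 to 0.402), and between core and 19S genes 0.435 over 176 pairs (0.388 to 0.492). Over the pairs of all genes tested the median r was 0.00 and the 95th percentile 0.566, and over genes with a mean of at least 10 CPM 0.03 and 0.624. The points share libraries and normalization, so that these are descriptions without a test. On deviations from the group means the medians were 0.646, 0.365 and 0.494 in the same order, so the coordination was present within the groups.

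The highest r of the 780 pairs of members was 0.969, between PSMB3, a non-catalytic beta subunit, and PSMC4, an ATPase. PSMA2 and PSMB7 followed with 0.950. Of the 780 pairs, 29 passed 0.8, or 3.72% beside 0.375% of the pairs of all genes tested. The median r over the 780 pairs was 0.274, and 201 of them lay under 0, or 25.8% beside 50.2% of the pairs of all genes. PSMB7 had the highest mean r with the other members, 0.450, followed by PSME2 with 0.435 and PSMA2 with 0.429. PSMA2, an alpha subunit, ranged from 51.6 to 71.7 CPM with a median of 57.4 in the high IMF group and from 48.1 to 65.8 with a median of 55.8 in the low IMF group, with pigs 3, 4 and 10 the highest.

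The mean scaled profile of the 27 core and 19S genes was highest in pigs 4, 10 and 3 and lowest in pigs 9, 8 and 2. Summed over these genes, the level was 1920, 1946 and 1900 CPM in pigs 4, 10 and 3, and 1631, 1652 and 1635 CPM in pigs 9, 8 and 2. The scaled profile ran from -0.76 to 0.92 SDs over high IMF pigs and from -0.80 to 0.88 over low IMF pigs, so that the groups interleaved. The profiles of the core and the 19S particle had r = 0.834 and rho = 0.853 with each other over the 12 pigs. The first principal component of the 27 genes took 49.3% of their variance, and that of all 14262 genes tested 21.1%. Such a share depends on the number of genes, and sets of 27 other genes were not tried. With the total counts of a pig the profile had r = 0.334, with the TMM factor -0.456 and with the share of the gene with most counts 0.393. Their part in the profile was not tested.

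**Figure D4:**
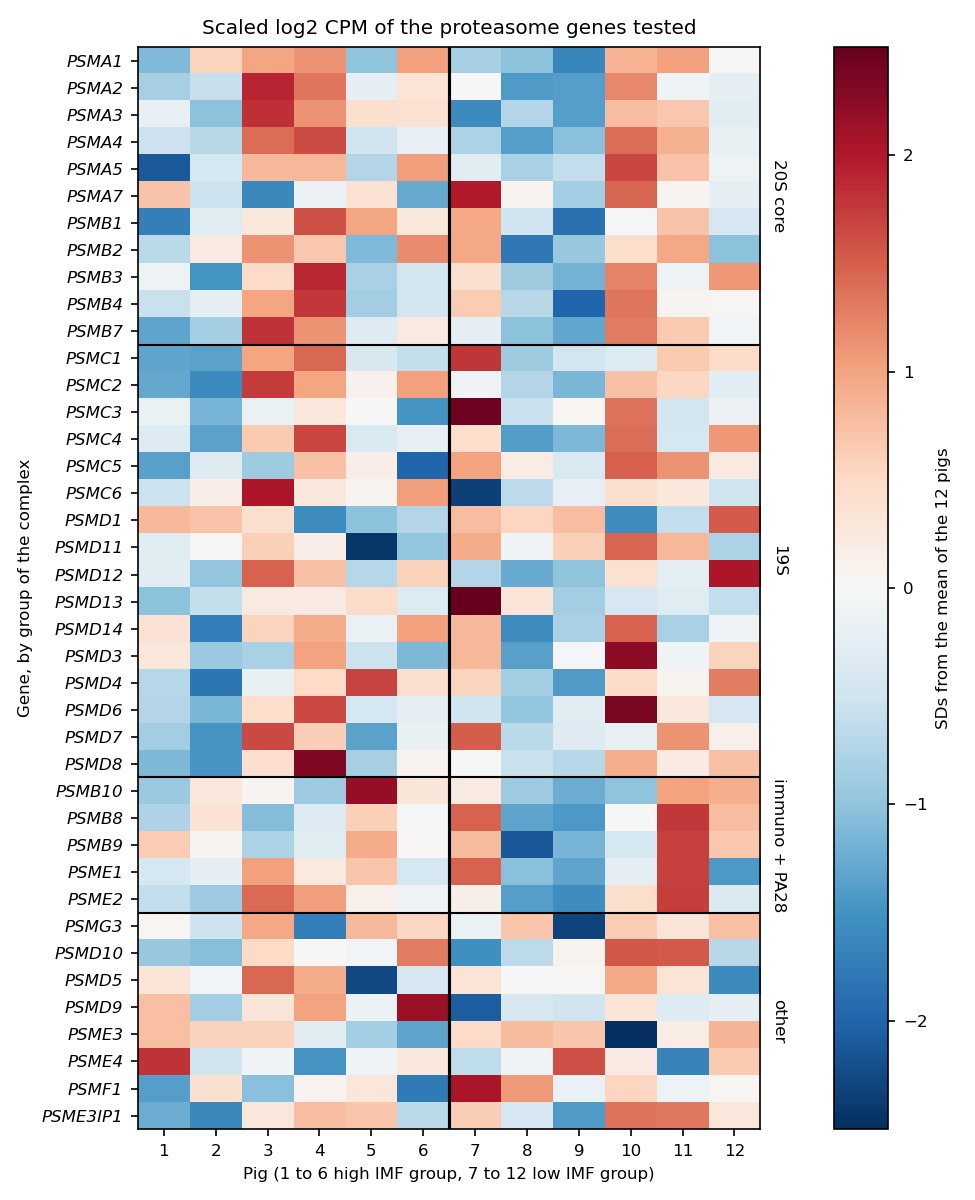
Log2 CPM of the 40 members in each pig, scaled per gene to SDs from the mean of the 12 pigs (red above, blue below), with genes ordered by group of the complex and a line between the high and low IMF pigs. Most 20S and 19S genes are red in pigs 3, 4 and 10 and blue in pigs 1, 2, 8 and 9, and the immunoproteasome genes are blue in pigs 8 and 9 and mostly red in pig 11.

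Some subunits of the same particles went their own way. PSMA7 had a mean r of 0.08 with the other members and of 0.126 with the profile of the core and 19S genes. It varied most like PSMC3, an ATPase, with r = 0.780, and both were highest in pig 7, at 110 and 129 CPM. PSMD13 was also highest in pig 7, at 133 CPM against 79.8 to 96.8 in the other pigs, and its SD fell from 0.19 to 0.09 without that pig. PSMC6 was lowest in pig 7, at 56.9 CPM. Pig 7 had the smallest TMM factor, 0.81, and the part of that factor in these values was not tested. PSMA7 overlaps LSM14B on the other strand in RefSeq, and the counting option for strand is not given in the sources used here. PSMA3, PSMC1, PSMC5, PSMD1, PSMD6, PSMD10, PSMD14 and PSME1 also overlap another gene.

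The lowest mean r with the other members belonged to PSME4 with -0.31, PSMD1 with -0.29 and PSME3 with -0.25. PSME4 and PSMB1, a beta subunit, had the lowest r of all pairs, -0.861. PSMD1 ranged from 83.4 to 97.0 CPM with a median of 91.2 in the high IMF group and from 83.5 to 102 CPM with a median of 96.1 in the low IMF group. Pigs 4 and 10, which had the most core and 19S RNA, had the least PSMD1. PSMD1 and PSME3 had r = 0.823 with each other, and with the profile of the core and 19S genes r was -0.549 for PSMD1, -0.509 for PSME4 and -0.444 for PSME3. PSMF1, the inhibitor, had an r of 0.0763 with that profile.

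**Figure D5:**
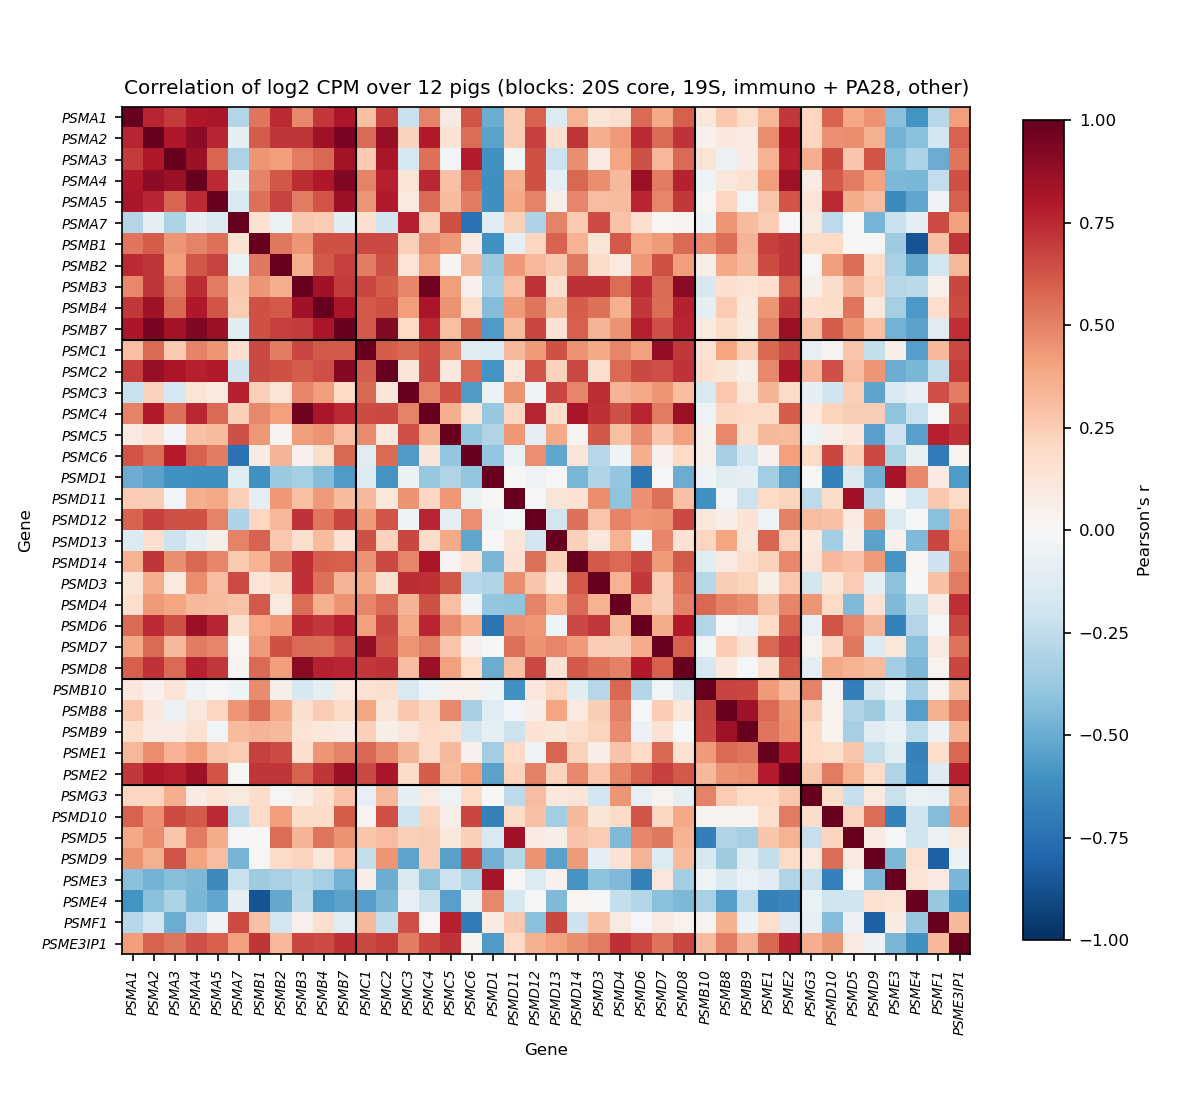
Pearson's r of log2 CPM over the 12 pigs for each pair of the 40 members (red positive, blue negative), with lines between the 20S core, the 19S particle, the immunoproteasome with PA28, and the other genes. The 20S and 19S blocks are mostly red, the block of PSMB8, PSMB9 and PSMB10 is red within itself and pale against the 20S core, and PSMD1, PSME3 and PSME4 form blue stripes.

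Outside the proteasome, the gene most like the profile of the core and 19S genes over the 12 pigs was COPS6, a subunit of the COP9 signalosome, whose make-up parallels that of the 19S lid, with r = 0.925. TIMM8B, a chaperone of mitochondrial import, had r = 0.921 and CD320, a receptor for transcobalamin, 0.902. The other two of the nearest 5 carry no gene name here.

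The inducible catalytic subunits varied together from pig to pig. PSMB8 and PSMB9 had r = 0.846 (permutation p = 0.00035, adjusted p = 0.00245 over 7 pairs) and rho = 0.881 (permutation p = 0.00023, adjusted p = 0.00161). PSMB8 and PSMB10 had r = 0.678 and rho = 0.720 (adjusted permutation p = 0.0295 and 0.0184), and PSMB9 and PSMB10 had r = 0.671 and rho = 0.727 (adjusted permutation p = 0.0295 and 0.0184). PSME1 and PSME2 had r = 0.781 and rho = 0.783 (adjusted permutation p = 0.0111 and 0.0144). Without the pair of pigs farthest from the median of the gene named first, r was 0.777 for PSMB8 and PSMB9, 0.720 for PSMB8 and PSMB10, 0.645 for PSMB9 and PSMB10 and 0.783 for PSME1 and PSME2. On deviations from the group means it was 0.889, 0.741, 0.668 and 0.776. The mean scaled profile of these 5 genes had r = 0.21 with the total counts of a pig. With the TMM factor r was -0.51, and with the share of the gene with most counts 0.51. Their part in these correlations was not tested. The genes share libraries and normalization, which permutation of the pigs does not allow for. Over the pairs of all genes tested the 95th percentile of r was 0.566.

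With PSMB7, r was 0.184 for PSMB8 (adjusted permutation p = 0.787), 0.0866 for PSMB9 (0.790) and 0.0988 for PSMB10 (0.790). The values of Spearman's rho were 0.259, 0.00 and 0.154 in the same order, with adjusted permutation p of 0.584, 1.00 and 0.742. Without pigs 3 and 10, the highest for PSMB7, these r were 0.553, 0.418 and 0.327, so that their low values rest on those pigs. Whether the correlations among the inducible subunits differ from those with PSMB7 was not tested.

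PSME2 followed the constitutive particle from pig to pig. Among the 5 inducible genes the median r was 0.551 over 10 pairs, and between them and the constitutive core 0.254 over 55 pairs. With the profile of the core and 19S genes, r was 0.821 for PSME2, 0.494 for PSME1, 0.311 for PSMB8, 0.191 for PSMB9 and 0.00910 for PSMB10. PSME2 had r = 0.866 with PSMB7, against 0.452 with PSMB8, 0.466 with PSMB9 and 0.326 with PSMB10. PSME1 had 0.496 with PSMB7 and 0.569, 0.532 and 0.429 with the same genes. Whether these differ was not tested. The median over the 5 inducible genes ranged from 0.386 to 0.693 on omission of single pigs.

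Several of these genes lie near each other. On Sscrofa11.1, PSMB8 spans bases 25058456 to 25061666 of chromosome 7 and PSMB9 bases 25072133 to 25077508, on opposite strands. Genes that may lie between them were not examined. PSME1 and PSME2 lie farther along the same chromosome, also on opposite strands. The promoters of RefSeq genes, from 250 bases before to 50 bases after the gene start, were searched on both strands for the core of the interferon-stimulated response element, AAANNGAAA, bound by interferon regulatory factors. It was found in the promoters of 4 of the 5 inducible genes, 3 of 31 constitutive core and 19S genes (PSMB3, PSMC4 and PSMD4), 0 of 13 other proteasome genes and 11.7% of the 19556 promoters searched. The letters were settled after these promoters had been read, and the counts are a description. PSMB8 held no match in this window. The sites of the inducible genes are shown to let their letters be compared, each 5′ to 3′ on the strand of the gene with the match in capitals. PSMB9 holds overlapping matches, and PSME1 holds the match on the opposite strand.
PSMB9, chr7:25071961-25071990: ggtttatgggAAAGGGAAAACGAAAgcggc
PSMB10, chr6:28547667-28547696: ggtgaaggtgAAAGTGAAAgaggatgcaga
PSMB10, chr6:28547618-28547647: aggaaatgtgAAAGCGAAAgcagttaagct
PSME1, chr7:75164494-75164523: cgagcgctgcTTTCGCTTTcccttccctgt
PSME2, chr7:75154580-75154609: gtggggagtgAAAGCGAAAgcccaggctgc

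The matches of PSMB9 and PSMB10 begin 162, 77 and 28 bases before the gene start, and those of PSME1 and PSME2 at bases 19 and 21 after it. The letters AAAGCGAAA stand in PSMB10 and PSME2, and in PSME1 on the other strand. The surroundings of the PSMB9 and PSMB10 matches are shown over 150 bases. Whether the matches have a part in the correlations between these genes was not tested.
PSMB9, chr7:25071913-25072062: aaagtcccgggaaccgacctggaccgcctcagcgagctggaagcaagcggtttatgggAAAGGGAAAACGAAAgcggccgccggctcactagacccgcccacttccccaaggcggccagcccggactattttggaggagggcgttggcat
PSMB10, chr6:28547610-28547759: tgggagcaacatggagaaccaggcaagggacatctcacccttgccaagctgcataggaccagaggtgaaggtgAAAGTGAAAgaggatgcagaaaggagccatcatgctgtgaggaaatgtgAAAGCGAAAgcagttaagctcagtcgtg

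The antioxidant response element TGACNNNGC, bound by NFE2L1 and NFE2L2, was searched in the same way. It was found in 5 of 49 proteasome promoters and 12.3% of all promoters searched, so that the members' share was near that of the genome. The 5 were PSMB6, PSMB7, PSMC5, PSMD14 and PSME4. The sites of PSMB7 and PSME4 are shown, which begin at bases 21 and 14 after the gene start, both on the opposite strand. Whether these matches have a part in the levels was not tested.
PSMB7, chr1:265235350-265235379: gaagatggcgGCTGTGTCAgtgtatgagcg
PSME4, chr3:87231513-87231542: cccggcggctGCAGCGTCAccagccgagcc

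The CCAAT box, bound by NF-Y, stood in 18 of 49 proteasome promoters and 35.4% of all.

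The genes that act on the proteasome were read from the same test. Of 30 regulators and partners, 27 were tested and 0 passed the adjusted threshold. At an unadjusted p at or under 0.05, which 10.4% of all genes tested reached, 5 were higher in the low and 1 in the high IMF group. NPLOC4, a cofactor of the unfoldase VCP, had a log2FC of 0.44 (adjusted p = 0.422 by edgeR). UBA1 and UBA6, the enzymes that activate ubiquitin, had log2FC of 0.30 and -0.31 (adjusted p = 0.427 and 0.425 by edgeR). UBQLN4, a shuttle for ubiquitinated proteins, had 0.26 (adjusted p = 0.431 by edgeR). NFE2L1 had 0.37 (adjusted p = 0.434 by edgeR), and its r with the profile of the core and 19S genes was -0.160. The median log2FC of the list was 0.10, beside -0.01 over all genes.

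Of 12 genes of interferon response and antigen presentation, 10 were tested and 0 passed the adjusted threshold. ISG15, a ubiquitin-like modifier, had a log2FC of -0.75 (adjusted p = 0.367 by edgeR) and MX1, an antiviral GTPase, -0.76 (adjusted p = 0.434 by edgeR). The other 8 had an unadjusted p over 0.05. The mean scaled profile of the list had r = 0.749 and rho = 0.643 with that of the 5 inducible proteasome genes, and r = -0.0974 with that of the core and 19S genes. Within the list IFIT1 had the highest r with the inducible genes, 0.720, and IRF1 the lowest, -0.112.

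The markers of blood and immune cells were read beside the inducible genes. All 6 macrophage markers, 5 of 7 lymphocyte markers and PTPRC, carried by all leukocytes, were tested. The lymphocyte markers summed to 1.65 to 4.76 CPM in the high and 1.56 to 2.31 CPM in the low IMF group, the macrophage markers to 48.0 to 107 and 58.0 to 99.0 CPM, and PTPRC stood at 5.70 to 22.4 and 5.14 to 8.35 CPM. With the profile of the inducible genes, r was 0.313 and rho 0.552 for the lymphocyte list, 0.154 and 0.196 for the macrophage list, 0.274 and 0.517 for PTPRC, and 0.555 and 0.615 for the 4 endothelial markers tested of 5. The 4 adipocyte markers summed to 23.4 to 90.1 CPM in the high and 10.3 to 95.3 CPM in the low IMF group, with r = -0.0835. The 3 markers of fibro-adipogenic cells had r = 0.0156 and the 3 of red blood cells -0.0590. The part of other cells in the inducible genes' levels was not tested.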

How the data were processed

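Stranded libraries of polyadenylated Semimembranosus RNA were sequenced as read pairs. The authors trimmed the reads with Trimmomatic, aligned them to Sscrofa11.1 with HISAT2, assembled transcripts with StringTie and counted with HTSeq, and the deposited values are raw counts per Ensembl gene. The annotation release and the strand option of counting are not given in the sources used here. Overlapping genes are therefore uncertain.

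Genes kept by filterByExpr were normalized by TMM and tested in edgeR 4.0.16 under R 4.3.3 by the quasi-likelihood method, on the IMF group alone. Genes were called at an adjusted p of 0.05 or less where log2FC was 0.58 or more in size. Each GEO sample is 1 pig. CPM are TMM-normalized and log2 CPM used a prior count of 2. Ratios were compared by two-sided exact permutation over all arrangements of the pigs, and gene pairs by 100000 permutations (numpy 2.4.6, scipy 1.17.1), with Benjamini-Hochberg adjustment over 5 ratios and 7 pairs. Alternatives were DESeq2 1.42.0 (size factors, Wald test), upper-quartile normalization, limma-voom (limma 3.58.1), other filters, labelled sex or age in the model, and omission of single pigs. The test was tried on simulated counts. Positions, exon lengths and sequences are RefSeq's (annotation release 106, Sscrofa11.1), matched by symbol. Pigs had 131048805 to 178013997 counts, and counting errors quoted cover counting only.

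The members and lists were chosen with earlier results of these data known. Values are given for the catalytic, activator and inhibitor genes, the 3 members with the highest and the 3 with the lowest mean r, the 3 with the largest SD, the 5 genes outside most like the core and 19S profile, and list genes with an unadjusted p of 0.05 or less (at most 5 a list). Other members and the interferon list's IFIT1 and IRF1 were named after their values were seen. A further gene and a motif are not reported here.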

Additional observations from a re-analysis of the deposited data

Results flagged for a closer look

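In groups of 6 pigs, a value was picked out where its gap to the nearest pig was large beside the range of the group, a rule that chance meets in about 1 of 20 groups. Over 90 groups of 6 values (40 genes and 5 ratios in each IMF group) it picked out 5, which is near that share. All 5 were in the low IMF group. In pig 7, PSMD13 stood high at a log2 CPM of 7.05 and PSMD9 low at 3.09. In pig 10, PSME3 stood low at 2.27 and PSMD6 high at 5.68. In pig 9, PSMG3 stood low at 0.99. Pigs 7, 9 and 10 are among the 4 of the 6 low IMF pigs whose Y chromosome counts went against the label. The causes were not tested.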

How the results depend on the processing

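The count of members called was 0 under all 22 alternatives. In 859 of 880 values the log2FC of a member stayed within 1 SE with an unadjusted p over 0.05. Over all genes, DESeq2's Wald test called 58 of the same genes and 65 of all genes with a count, and edgeR called 0 to 1 when a pig was left out (1 without pig 5 or pig 10). The count of members at an unadjusted p at or under 0.05 was 0 to 1 when a pig was left out: PSMF1 without pig 2 (log2FC 0.26) or pig 5 (0.25), and PSMD11 without pig 12 (0.23). Without the 6 pigs whose Y chromosome counts went against the label, an alternative chosen after seeing the data, the log2 ratio of PSMB10 over PSMB7, low minus high, was 0.36, and the 18 log2FC values beyond 1 SE all belong to this alternative. On omission of single pigs that ratio ran from -0.18 to 0.06 and that of PSMB9 over PSMB7 from -0.20 to 0.10, so neither has a settled sign. The median correlation was 0.576 to 0.702 in the core, 0.310 to 0.4575 in the 19S particle and 0.483 to 0.572 in the inducible genes. These ranges cover the alternatives other than omission of single pigs, Spearman's rho included. They also cover the core without PSMA7 and the 19S particle without PSMD1. In these data those genes had the lowest r of their sets with the core and 19S profile. The upper ends may rest on that omission. The ratios and pairs with PSMB5 or PSMB6 were not run. No paired analysis was possible because the labels number the pigs 1 to 12 and the groups share no number.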
